A study of Mus musculus with 6 samples.

Results

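The Toll-like receptor genes are the 10 receptors Tlr1, Tlr2, Tlr3, Tlr4, Tlr5, Tlr6, Tlr7, Tlr8, Tlr9 and Tlr13, chosen by name and found as 10 of the 32212 rows of a liver count table. All 10 passed the filter on low counts, which kept 13867 rows. The table was made from poly(A) RNA of 6 livers, 3 from WT and 3 from CgA-KO mice, with 1 library per liver. All 6 mice were male C57BL/6 mice 2 yr of age on a normal chow diet, and the CgA-KO mice lack chromogranin A (CgA), the prohormone encoded by Chga. The study turned to liver RNA-seq to learn how the high blood pressure of CgA-KO mice reverses with age. Its text names livers of younger mice as well, and the 6 labels here give only 2 yr. Summed over the 10 receptors, the normalised level was 19.8 to 34.5 CPM (counts scaled to a common library size) in the WT livers and 59.1 to 107 CPM in the CgA-KO livers. 6 receptors (Tlr1, Tlr2, Tlr4, Tlr7, Tlr8 and Tlr13) were called higher in CgA-KO and 0 lower, a call being a Benjamini-Hochberg adjusted p below 0.05 from the quasi-likelihood test of edgeR. Tlr6, Tlr7, Tlr8 and Tlr9 passed the filter by their CgA-KO counts. A lower level in CgA-KO could hardly have been called for these receptors. Of all genes tested, 8.60% were called higher, 3.84% lower and 12.4% in either direction.

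Toll-like receptors are membrane proteins of the innate immune system that bind molecules typical of microbes. One class sits on the cell surface and binds bacterial lipids, lipoproteins and flagellin, and another sits in endosomes and binds nucleic acids. Both signal through adaptors to NF-kappaB and interferon regulatory factors, and in the liver they are known above all from Kupffer cells, the resident macrophages that meet gut-derived microbial products in portal blood. Hepatocytes and sinusoidal endothelial cells carry some of them as well.

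Total counts were between 10558616 and 31087453 per library, and the trimmed mean of M values (TMM) scaling factors lay between 0.756 and 1.12. Levels are TMM-normalised CPM, and 3 counts, the smallest level treated as seen, correspond to 0.0951 to 0.269 CPM for counting error only. Chga had 0 counts in all 6 libraries, which allows up to 0.0965 to 0.284 CPM on the library total, so that the targeted gene cannot check the genotype labels. Pairs of livers of the same genotype differed beyond counting noise, with a chi-square of 29.9 to 190 per degree of freedom, and each liver was kept as its own sample. With 3 livers per genotype, the smallest p that the exact two-sided permutation test allows for a single gene is 0.1.

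Several receptor genes lie next to each other in the genome (GRCm38, GENCODE annotation). Tlr1 (chr5:64924679-64933563) and Tlr6 (chr5:64952031-64960097) stand on the minus strand 18467 bp apart. Tlr8 (chrX:167242696-167264329) and Tlr7 (chrX:167304929-167330558) share the minus strand of the X chromosome with a gap of 40599 bp. Tlr13 (chrX:106143204-106160493) lies elsewhere on the X chromosome, on the plus strand. Tlr2 (chr3:83836272-83841767), Tlr4 (chr4:66827584-66930284), Tlr5 (chr1:182954788-182976044), Tlr3 (chr8:45395665-45411080) and Tlr9 (chr9:106222598-106226883) are single genes on their chromosomes in this list. Tlr1 and Tlr6 are close paralogs, with 607 stretches of 31 bases in common, 18.3% of those of Tlr1 and 16.4% of those of Tlr6, and a longest identical run of 229 bp, so that the authors' quantification could have split reads between them. Tlr2, Tlr5, Tlr7, Tlr8, Tlr9 and Tlr13 shared 0 such stretches with any other gene. Tlr3 overlaps the antisense gene Gm45542, which holds 6.1% of the Tlr3 stretches and is not a row of the table.

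The sequence upstream of the start sites was read from RefSeq (GRCm38.p6), where 8 of the 10 genes matched with 10 windows of 250 bases; Tlr4 and Tlr7 did not match. Letters of 3 motifs were searched on both strands in windows of the same length from 32851 promoters. GAGGAAGT, the core letters bound by the macrophage factor PU.1, was in 2.44% of all promoters and in 1 of the 10 receptor windows, that of Tlr1. The interferon-stimulated response element, searched as GAAA repeated after any 2 bases, was in 2.98% of all and in 1 receptor window, at the second start of Tlr6, with a pair of overlapping matches on the opposite strand, where GAAA reads as TTTC. The NF-kappaB motif was in 3.90% of all and in 2 receptor windows, those of Tlr2 and Tlr3. The window of Tlr3 ends at a start 700 bases inside its GENCODE gene. Its match, 211 bases before that start, therefore also lies within the gene. A match is a description of letters and no evidence of binding. The windows of receptors whose results are described below are shown outside exons, 5' to 3' on the strand of the gene, with motif matches in capitals. Tlr1 and Tlr2 are shown as receptors with a match, the second start of Tlr6 for its interferon element inside an intron, Tlr13 and Tlr8 as receptors with large increases and none of the 3 motifs, and Tlr5 as the receptor that was lower.
Tlr1 (chr5:64933564-64933808, minus strand): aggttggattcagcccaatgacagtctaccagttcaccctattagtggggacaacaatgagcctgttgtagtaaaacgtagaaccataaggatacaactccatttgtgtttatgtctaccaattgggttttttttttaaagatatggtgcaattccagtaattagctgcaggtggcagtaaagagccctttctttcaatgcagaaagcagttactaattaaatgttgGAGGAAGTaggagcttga
Tlr2 (chr3:83841768-83841858, minus strand): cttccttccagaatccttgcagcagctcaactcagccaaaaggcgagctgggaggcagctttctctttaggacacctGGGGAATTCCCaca
Tlr6 second start (chr5:64959167-64959416, minus strand): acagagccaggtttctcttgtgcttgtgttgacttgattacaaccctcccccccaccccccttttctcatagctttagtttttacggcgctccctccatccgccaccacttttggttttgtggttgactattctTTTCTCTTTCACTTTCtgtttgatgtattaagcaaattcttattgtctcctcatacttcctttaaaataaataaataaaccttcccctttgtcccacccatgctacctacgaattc
Tlr13 (chrX:106143025-106143203, plus strand): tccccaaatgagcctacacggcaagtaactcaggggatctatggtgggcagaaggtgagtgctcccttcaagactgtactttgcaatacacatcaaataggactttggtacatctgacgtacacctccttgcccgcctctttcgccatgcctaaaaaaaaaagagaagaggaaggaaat
Tlr8 (chrX:167264330-167264579, minus strand): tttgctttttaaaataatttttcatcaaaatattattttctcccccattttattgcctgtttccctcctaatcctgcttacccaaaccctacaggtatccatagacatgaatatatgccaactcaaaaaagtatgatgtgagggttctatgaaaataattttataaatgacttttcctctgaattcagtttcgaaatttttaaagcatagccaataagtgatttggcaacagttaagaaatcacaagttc
Tlr5 (chr1:182954538-182954787, plus strand): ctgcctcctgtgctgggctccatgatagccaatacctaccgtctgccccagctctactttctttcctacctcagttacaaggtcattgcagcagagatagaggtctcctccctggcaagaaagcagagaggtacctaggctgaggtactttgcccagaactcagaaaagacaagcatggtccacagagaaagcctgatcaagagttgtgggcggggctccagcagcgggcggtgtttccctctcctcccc

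The 3 largest increases were in endosomal receptors. Tlr7, a receptor for single-stranded RNA, had 1.79, 0.681 and 0.339 CPM in the WT livers (20, 16 and 8 counts) and 18.6, 7.83 and 15.7 CPM in the CgA-KO livers (400, 247 and 350 counts). Every CgA-KO liver was above every WT liver, and the mean rose from 0.937 ± 0.759 to 14.0 ± 5.56 CPM (SD, n = 3 per genotype). The log2 fold change of Tlr7 was 4.03 (standard error 0.575), or 16.4-fold, with an edgeR adjusted p = 0.00554. Tlr13, which binds bacterial ribosomal RNA, had 1.70, 0.723 and 0.932 CPM in WT and 12.8, 14.0 and 19.7 CPM in CgA-KO. The CgA-KO livers lay close together and far above WT, with means of 1.12 ± 0.515 and 15.5 ± 3.70 CPM. Tlr13 rose by 3.86 on the log2 scale (standard error 0.362), or 14.5-fold, with the smallest adjusted p of the receptors in edgeR's test, 0.00247. Tlr8, a further RNA receptor, had 1.34, 0.511 and 0.466 CPM in WT and 6.36, 4.22 and 12.9 CPM in CgA-KO. The genotypes did not overlap, and CgA-KO replicate 3 held the highest level. The log2 fold change of Tlr8 was 3.43 (standard error 0.566), or 10.8-fold, from 0.773 ± 0.494 to 7.83 ± 4.53 CPM (edgeR adjusted p = 0.00835). Tlr7 and Tlr13 kept the call when any single library was left out, and Tlr8 lost it without WT replicate 3, with a log2 fold change of 3.15 and an edgeR adjusted p = 0.0509.

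The remaining endosomal receptors, Tlr3 and Tlr9, did not pass the test. Tlr3, the receptor for double-stranded RNA, had 5.19, 3.62 and 5.04 CPM in WT and 10.8, 7.45 and 7.31 CPM in CgA-KO. All CgA-KO livers were above all WT livers, but the step was the smallest among the receptors above WT, from 4.62 ± 0.870 to 8.53 ± 1.99 CPM. Its log2 fold change was 0.89 (standard error 0.272) with an edgeR adjusted p = 0.0656, and with DESeq2, the tool of the study, the adjusted p was 0.0327. Tlr9, the receptor for unmethylated CpG DNA, had 15, 1 and 2 counts in WT and 71, 37 and 39 counts in CgA-KO, which is 1.34, 0.0425 and 0.0847 CPM against 3.30, 1.17 and 1.75 CPM. WT replicate 1 was above CgA-KO replicate 2, so that the genotypes overlapped, and the other WT livers were below 3 counts. The log2 fold change of Tlr9 was 2.34 (standard error 1.02, edgeR adjusted p = 0.166), and without WT replicate 1 it was 4.94 with an edgeR adjusted p = 0.00495. The summed level of 7 B cell markers was 49.2 CPM in WT replicate 1 and 51.3 CPM in CgA-KO replicate 1, the libraries with the highest Tlr9 of their genotype, and 4.17 to 12.6 CPM in the other 4. Of these markers 0 of the 5 tested were called between the genotypes. The summed level of 10 macrophage markers was also highest in these libraries within each genotype (390 CPM and 1683 CPM), as were Tlr1, Tlr3, Tlr6 and Tlr7. Single macrophage markers differed in CgA-KO replicate 1. Csf1r was highest there (365 against 190 and 114 CPM in CgA-KO replicates 2 and 3), and C1qa was lowest (140 against 192 and 167 CPM). The part of either cell type in the level of Tlr9 was not tested.

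Of the surface receptors, Tlr4, the receptor for lipopolysaccharide, had 2.24, 1.06 and 0.762 CPM in WT and 7.94, 4.34 and 12.7 CPM in CgA-KO. The genotypes did not overlap, and the means were 1.36 ± 0.780 and 8.34 ± 4.21 CPM. Tlr4 rose by 2.68 on the log2 scale with a standard error of 0.515 (6.41-fold, edgeR adjusted p = 0.0142). Tlr2, which binds lipoproteins together with Tlr1 or Tlr6, had 2.51, 1.91 and 1.86 CPM in WT and 9.52, 5.04 and 15.4 CPM in CgA-KO. Its WT livers were close to each other, while the CgA-KO livers spread widely around 9.98 ± 5.18 CPM. Tlr2 rose by 2.26 on the log2 scale with a standard error of 0.413 (4.79-fold, edgeR adjusted p = 0.0122). Tlr1, the partner of Tlr2 for triacylated lipoproteins, had 49, 35 and 32 counts in WT and 280, 259 and 226 counts in CgA-KO, or 2.41 ± 1.71 and 10.4 ± 2.41 CPM (SD, n = 3 each). The genotypes were apart, with WT replicate 1, the shallowest library, the highest WT liver on the CPM scale. On the log2 scale Tlr1 rose by 2.17 with a standard error of 0.457 (4.51-fold, edgeR adjusted p = 0.0186). These 3 calls were lost without WT replicate 2 (edgeR adjusted p of 0.0711 for Tlr4, 0.0512 for Tlr2 and 0.0748 for Tlr1) and without WT replicate 3 (0.0694, 0.0646 and 0.0832 in the same order), and that of Tlr1 also without CgA-KO replicate 1 (0.0699).

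Tlr6, the partner of Tlr2 for diacylated lipoproteins, had 23, 6 and 9 counts in WT and 108, 82 and 44 counts in CgA-KO. On the CPM scale these are 2.06, 0.255 and 0.381 against 5.01, 2.60 and 1.97, so that WT replicate 1 was just above CgA-KO replicate 3. The log2 fold change of Tlr6 was 1.97 (standard error 0.753, edgeR adjusted p = 0.122), and without WT replicate 1 it was 3.34 with an edgeR adjusted p = 0.00813. Tlr5, the receptor for flagellin, was the receptor with lower values in CgA-KO. It had 11.9, 9.53 and 12.8 CPM in WT and 5.99, 4.28 and 9.14 CPM in CgA-KO. Every CgA-KO liver was below every WT liver, with means of 11.4 ± 1.69 and 6.47 ± 2.47 CPM. The log2 fold change of Tlr5 was -0.82 (standard error 0.300, 1.77-fold lower) and did not pass the test (edgeR adjusted p = 0.109). Tlr5 made up 34.5% to 53.3% of the summed receptor counts in the WT livers and 6.42% to 8.57% in the CgA-KO livers.

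**Figure D1:**
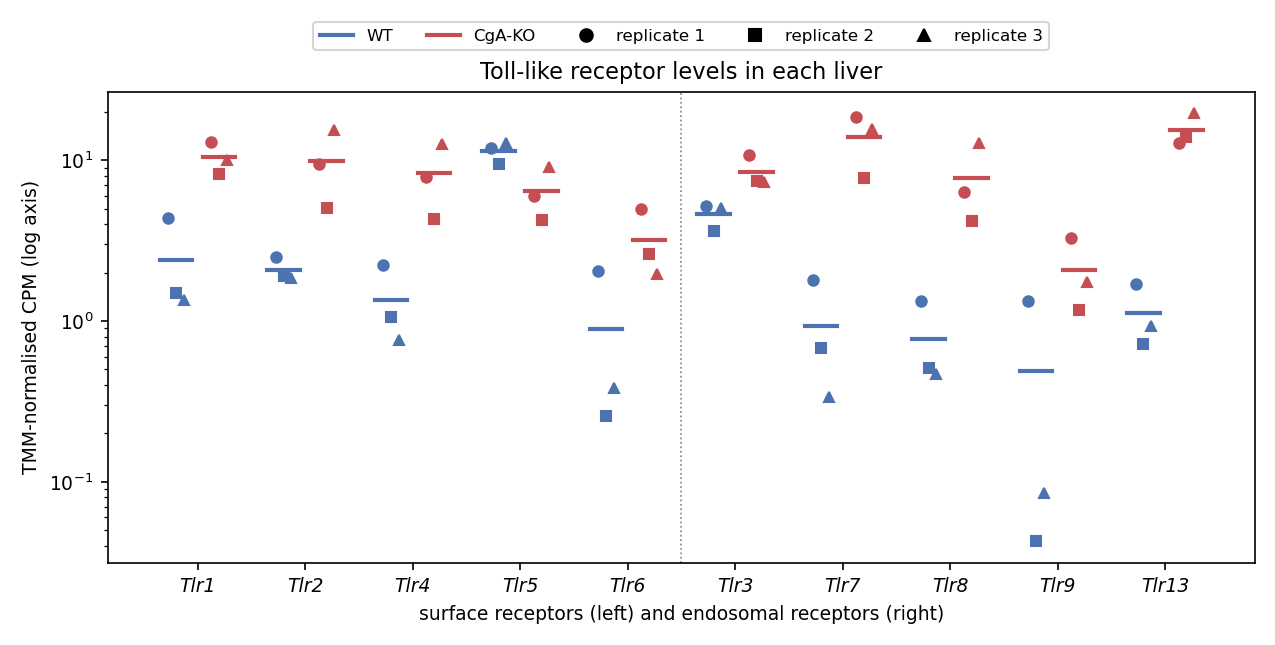
TMM-normalised CPM of the 10 Toll-like receptor genes in each liver (log axis; circles, squares and triangles are replicates 1, 2 and 3, and bars are genotype means). All CgA-KO livers are above all WT livers for 7 receptors and below them for Tlr5, while the genotypes overlap for Tlr6 and Tlr9.

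Counted over the receptors, the CgA-KO livers were all above the WT livers in 7 of 10 (Tlr1, Tlr2, Tlr3, Tlr4, Tlr7, Tlr8 and Tlr13), against 19.0% of all genes, and all below them in 1 of 10 (Tlr5), against 14.6% of all genes. For these 8 receptors the exact permutation test gave p = 0.1, the smallest it can give, and for Tlr6 and Tlr9 it gave p = 0.2 (0.125 and 0.2 after Benjamini-Hochberg adjustment over the 10 tests). Of the 10 receptors, Tlr6, Tlr7, Tlr8 and Tlr9 passed the filter by their CgA-KO counts. The median log2 fold change was 2.30 over the 10 receptors, 2.17 over the 5 surface receptors and 3.43 over the 5 endosomal receptors, and -0.01 over all genes tested. The summed level of the endosomal receptors was 5.57 to 11.4 CPM in WT and 34.6 to 57.4 CPM in CgA-KO, and that of the surface receptors was 14.3 to 23.1 CPM and 24.5 to 49.4 CPM. WT replicate 1 was the highest WT library for 9 of the 10 receptors, all but Tlr5. CgA-KO replicate 2 was the lowest CgA-KO library for 7 of the 10.

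The further mouse receptors of the family went different ways. Tlr11, which binds profilin of protozoa, had 4, 4 and 2 counts in WT and 53, 57 and 26 counts in CgA-KO. From 0.204 ± 0.140 CPM in WT the mean went to 1.81 ± 0.648 CPM, a rise of 3.27 on the log2 scale with a standard error of 0.609 (edgeR adjusted p = 0.0128). Tlr11 passed the filter by its CgA-KO counts, so that a lower level could hardly have been called. WT replicate 3 was under the floor of 3 counts. Tlr12, a partner of Tlr11, had 19.0, 13.1 and 7.79 CPM in WT and 12.6, 9.10 and 12.1 CPM in CgA-KO, values that overlapped (log2 fold change -0.23, standard error 0.316, edgeR adjusted p = 0.675).

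Levels of the 10 receptors can be set side by side per length, as CPM per kb of annotated exon. Tlr12 was left out of this order. Its WT mean was above that of Tlr5, 13.3 against 11.4 CPM. With less exon, 3177 against 4790 bp, the mean of Tlr12 was above that of Tlr5 per length as well. Among the 10 receptors Tlr5 was first in the WT livers with 2.38 ± 0.352 CPM per kb, above Tlr3 (0.887 ± 0.167), Tlr1 (0.721 ± 0.512) and Tlr2 (0.695 ± 0.119). Tlr13, Tlr4, Tlr6, Tlr7, Tlr8 and Tlr9 followed between 0.260 and 0.141 CPM per kb. In this order the ranges over livers of neighbours were apart between Tlr5 and Tlr3 and between Tlr2 and Tlr13, and they overlapped for the other 7 neighbouring pairs. In the CgA-KO livers Tlr13 was first (3.60 ± 0.861 CPM per kb), followed by Tlr7 (3.44 ± 1.36), Tlr2 (3.31 ± 1.72) and Tlr1 (3.12 ± 0.720). Tlr8 (2.18), Tlr3 (1.64), Tlr4 (1.50) and Tlr5 (1.35) came next, and Tlr6 (0.857) and Tlr9 (0.596) were last, with overlapping ranges for all 9 neighbouring pairs. The mean of Tlr13 moved from the fifth to the first place and that of Tlr7 from the eighth to the second, while that of Tlr5 moved from the first to the eighth.

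**Figure D2:**
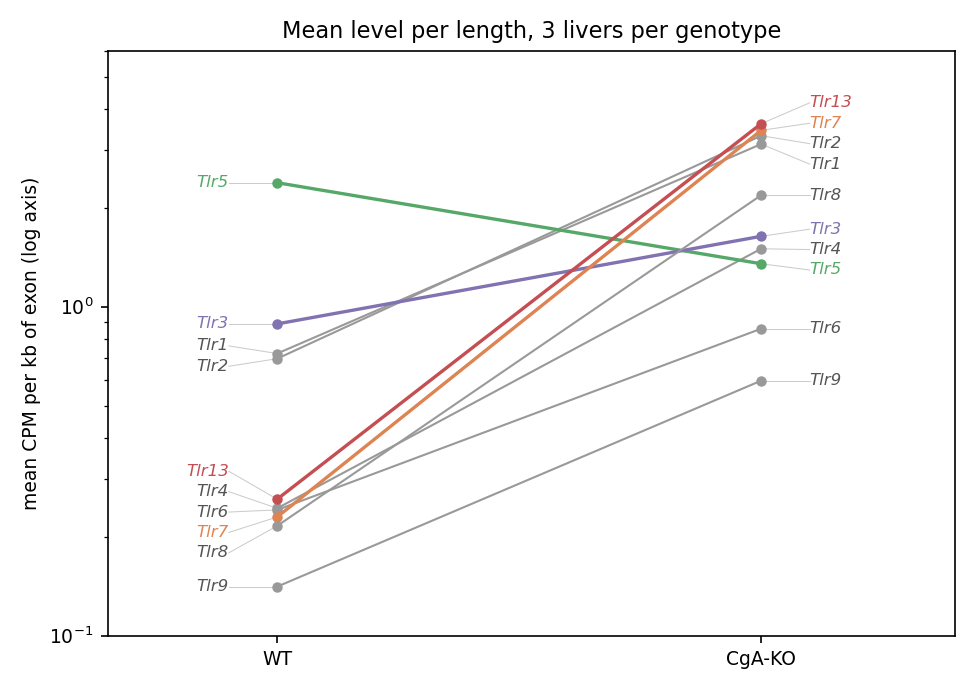
Mean level of each receptor in CPM per kb of exon (log axis) in 3 WT and 3 CgA-KO livers, with a line joining the genotypes. The line of Tlr5 falls from 2.38 to 1.35, and those of Tlr13 and Tlr7 rise to 3.60 and 3.44.

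In bulk liver, more cells of a type and more RNA per cell cannot be told apart, so markers of cell types known to carry these receptors were measured in the same libraries. All 10 macrophage markers (Csf1r, Adgre1, C1qa, C1qb, C1qc, Cd68, Mpeg1, Lyz2, Fcgr1 and Aif1) were called higher (median 2.99 on the log2 scale), and their summed level was 120 to 390 CPM in WT and 1352 to 1683 CPM in CgA-KO. Of 7 Kupffer cell markers, 5 (Clec4f, Vsig4, Timd4, Cd5l and Folr2) were called higher, and the sum was 86.7 to 176 CPM in WT and 779 to 1175 CPM in CgA-KO. Monocyte markers (3 of 7 called higher, 11.6 to 24.4 CPM against 41.4 to 251 CPM) and neutrophil markers (4 of 6 tested, 7.20 to 13.6 CPM against 47.8 to 246 CPM) were highest in CgA-KO replicate 2, the library in which 7 receptors had their lowest CgA-KO level. That library also had the lowest macrophage sum of the CgA-KO livers (1352 CPM), the highest Kupffer cell sum (1175 CPM) and the highest T and NK cell sum (74.0 CPM). Single macrophage markers went different ways in it. Among the CgA-KO livers C1qa, C1qb, C1qc, Cd68 and Fcgr1 were highest there. Adgre1, Lyz2 and Aif1 were lowest, and Csf1r and Mpeg1 lay between the other livers. Of conventional dendritic cell markers 2 of 6 tested were called higher, with sums of 7.62 to 20.2 CPM in WT and 24.7 to 34.0 CPM in CgA-KO. Of T and NK cell markers 3 of 5 tested were called higher (Cd3e, Cd3d and Nkg7), with sums of 1.99 to 6.99 CPM and 14.8 to 74.0 CPM. These genes passed the filter by their CgA-KO counts, as did the called Chil3, Retnlg, Mmp9 and Flt3 of the lists above. A lower level in CgA-KO could hardly have been called for them. The plasmacytoid dendritic cell list was near its detection limit but for Ly6d, with Siglech at 1, 7 and 13 counts in WT and 7, 12 and 36 in CgA-KO and Cox6a2 at 0 in every CgA-KO liver. Stellate cell markers (4 of 6 higher) summed to 180 to 238 CPM in WT and 343 to 484 CPM in CgA-KO. Sinusoidal endothelial markers (1 of 6 higher, 1 lower) summed to 87.3 to 101 CPM and 90.6 to 120 CPM, and hepatocyte markers (0 of 6 called) to 50096 to 84662 CPM and 41628 to 70709 CPM, so that the labelled tissue had its defining genes in every library. No marker was at 0 in all libraries. The part of cell numbers in the receptor changes was not tested.

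Scaling each library to the geometric mean of the 10 macrophage markers in place of TMM gave each receptor's change relative to those markers. On this scale the median over all genes was -3.20 (log2), 0.173% of genes were called higher and 91.3% lower, and the p-values leave out the error of the marker level itself. Of the 10 receptors, 0 were called higher and 2 lower, Tlr5 (log2 fold change -4.04, edgeR adjusted p = 1.64e-07) and Tlr3 (-2.31, edgeR adjusted p = 3.46e-04). Tlr7 had the highest value, 1.15 (edgeR adjusted p = 0.0882), and its level was 5.10% to 7.65% of the marker level in WT and 8.74% to 17.5% in CgA-KO, which did not overlap. The ratios of Tlr1 (14.1% to 20.4% in WT, 9.16% to 12.2% in CgA-KO), Tlr3 (22.2% to 75.8%, 7.80% to 10.2%) and Tlr5 (50.9% to 192%, 4.77% to 9.77%) did not overlap either, with CgA-KO below WT, and those of the other 6 receptors overlapped. Tlr13 had 0.82 (edgeR adjusted p = 0.217) and Tlr8 0.49 (0.485), Tlr4 had -0.25 (0.707), Tlr9 -0.29 (0.715), Tlr1 -0.71 (0.269), Tlr6 -0.80 (0.270) and Tlr2 -0.86 (0.184), all short of the threshold. Relative to the 7 Kupffer cell markers, where 0.382% of genes were called higher and 84.1% lower, Tlr7 (1.92, edgeR adjusted p = 0.00829) and Tlr13 (1.61, edgeR adjusted p = 0.0239) were called higher and Tlr5 (-2.99, edgeR adjusted p = 4.09e-05) was called lower. That marker level includes Marco and Cd163, which were not called, with log2 fold changes of 1.52 and 1.14. The other Kupffer cell markers rose by 2.88 to 3.59, so Marco and Cd163 lower the increase that this scale subtracts. In the ratio to the Kupffer cell markers the livers of the genotypes overlapped for Tlr7 and Tlr13, with CgA-KO replicate 2 the lowest CgA-KO liver for both (8.89% and 15.8%). The marker level was highest in that liver, at 88.1 CPM against 28.9 and 38.2 CPM in CgA-KO replicates 1 and 3. Marco (57.4 against 0.139 and 1.08 CPM) and Cd163 (19.9 against 3.62 and 10.3 CPM) were highest there too.

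**Figure D3:**
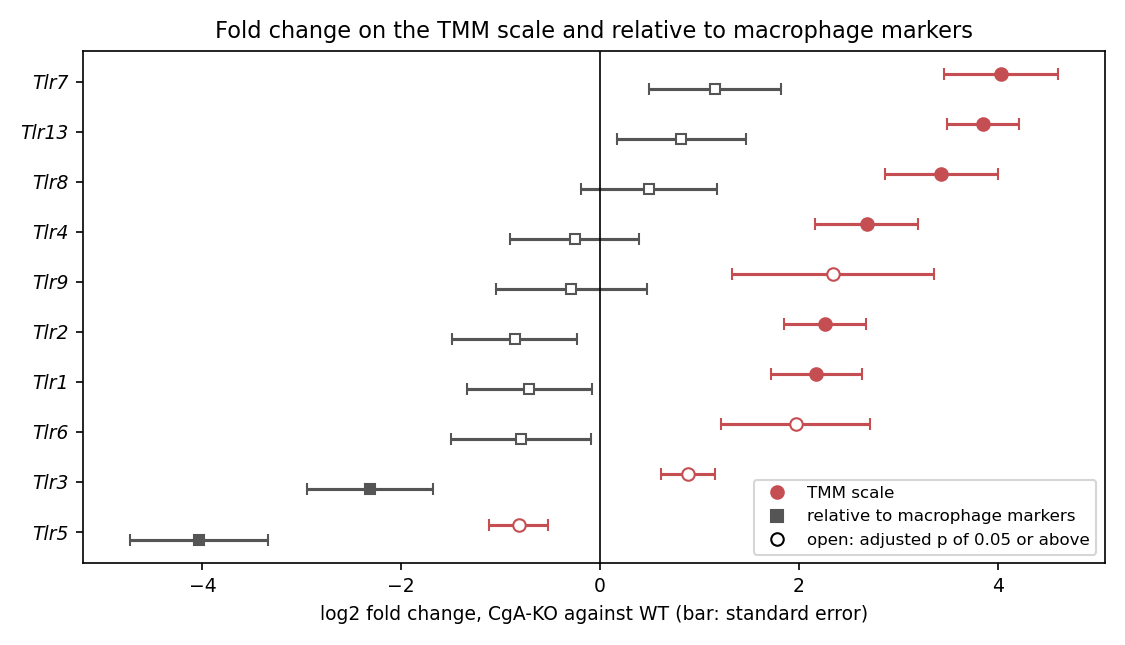
log2 fold change of each receptor in CgA-KO against WT, on the TMM scale (circles) and relative to 10 macrophage markers (squares), with standard errors from edgeR; open symbols have an adjusted p of 0.05 or above. On the TMM scale 9 receptors are above 0, and relative to the markers Tlr7, Tlr13 and Tlr8 are above 0 and Tlr3 and Tlr5 are called lower.

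The genes around the receptors were described by role, from 67 listed genes of which 61 were tested. 18 were called higher and 0 lower, against 8.60% and 3.84% of all genes, and the median log2 fold change was 0.61. The count was 5 without WT replicate 3, 9 without WT replicate 2 and 11 without CgA-KO replicate 1. Co-receptors and accessory proteins had 3 of 6 called: Cd14, which hands lipopolysaccharide to Tlr4, rose by 2.67 on the log2 scale (standard error 0.350, edgeR adjusted p = 0.00475), from 1.56 ± 0.291 to 9.83 ± 3.67 CPM. Cd180 (3.03) and its partner Ly86 (2.43), a receptor pair related to Tlr4, rose as well. Ly96, which encodes the MD-2 subunit that Tlr4 needs to bind lipopolysaccharide, had 2.51, 4.04 and 3.43 CPM in WT and 3.76, 3.08 and 3.54 CPM in CgA-KO, overlapping values that differed by 0.04 on the log2 scale (standard error 0.303, edgeR adjusted p = 0.944). Among 10 genes of trafficking and processing, 3 were called higher. Unc93b1, the chaperone that carries the endosomal receptors to their compartment, rose by 1.13 (standard error 0.311, edgeR adjusted p = 0.0461), from 30.4 ± 12.7 to 66.4 ± 16.9 CPM. Ctss (3.02) and Lgmn (2.02), endosomal proteases that cut these receptors, rose further.

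Downstream of the receptors, 1 of 6 adaptors was called, Ticam2, which links Tlr4 to the interferon branch and rose by 2.26 on the log2 scale (edgeR adjusted p = 0.0108), and Myd88, the adaptor of all these receptors but Tlr3, had 0.61 (edgeR adjusted p = 0.0763). Ticam2 (11, 13 and 21 counts in WT) passed the filter by its CgA-KO counts. Of 16 kinases and ligases, Tab1, a subunit of the TAK1 kinase complex, was called (1.19), and the median of this list was 0.24. Of 7 transcription factors, 4 were called, Nfkb1 (0.76), Nfkb2 (1.17), Irf5 (1.25) and Irf7 (1.41), the last a factor of interferon induction downstream of Tlr7 and Tlr9. Of 9 inhibitors tested, Irak3 (1.69) and Tnfaip3 (1.85), which dampen signalling of the receptors, were called. Of 12 target genes, 7 passed the filter, and 4 of them were called: Il1b (2.41), Ccl3 (2.09), Ccl4 (2.94) and Cxcl10 (2.76). Tnf (16, 6 and 10 counts in WT), Cxcl2 (4, 14 and 5) and Il10 (2, 0 and 0) passed by their CgA-KO counts. So did Ccl3 (9, 11 and 7) and Ccl4 (3, 4 and 4). A lower level in CgA-KO could hardly have been called for these genes. Il6, Il12a, Il12b, Ifnb1 and Ptgs2 did not pass the filter, with between 0 and 13 counts per library. Many of these genes are also expressed by macrophages, and their part in these counts was not tested.

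**Figure D4:**
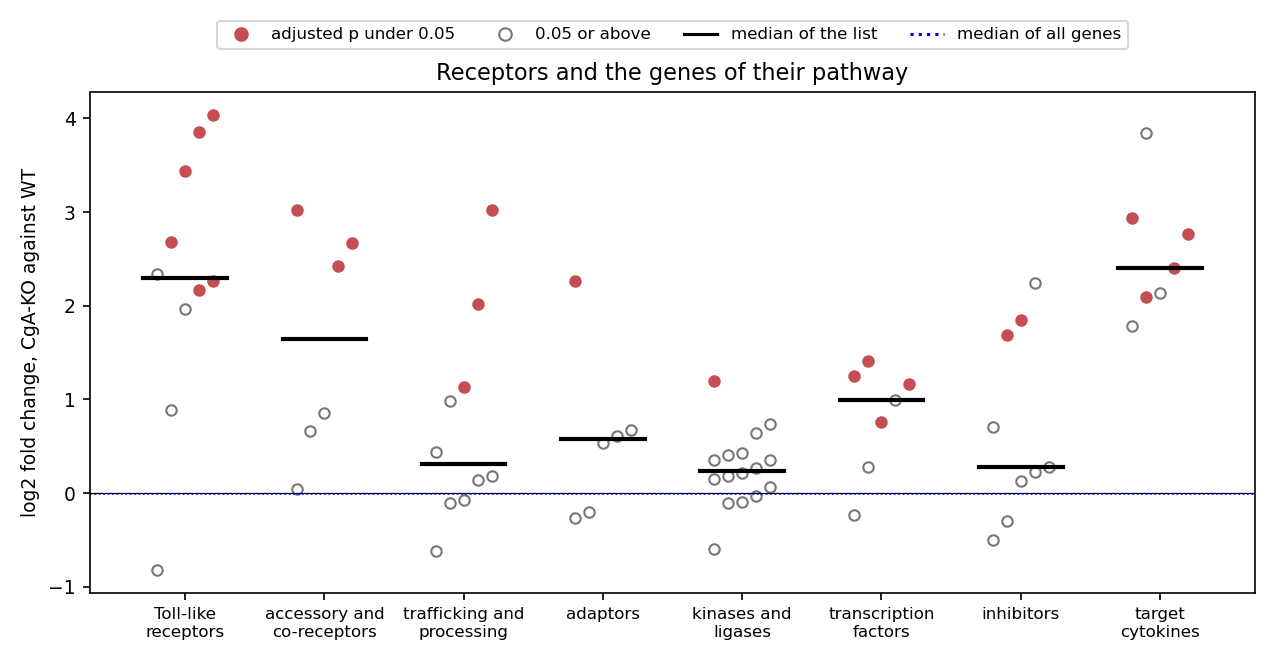
log2 fold change in CgA-KO against WT of the receptors and of the tested genes of 7 pathway lists (red: edgeR adjusted p under 0.05; black bars: list medians; dotted line: median of all genes). The median of the receptors is 2.30, and that of the kinases and ligases is 0.24. That of the target cytokines, 2.41, is over the 7 of 12 that passed the filter, most of them by their CgA-KO counts.

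The pattern of each receptor over the 6 libraries was compared with those of 12716 genes with a mean of at least 1 CPM, as the root-mean-square difference of log2 CPM after each gene was centred on its mean. The nearest genes were Slc34a2 (0.235), Clec4a1 and Sult1e1 for Tlr7, Cybb (0.268), Npas2 and Rap1gap2 for Tlr13, and Havcr2 (0.174), Clec12a and Tasl for Tlr8. For Tlr4 they were Capg (0.179), Evi2a and Cysltr1, for Tlr2 P2ry10b (0.239), Spic and Oxct1, and for Tlr1 Lpxn (0.0873), Ppfia4 and Acvrl1. Those of Tlr6 were Camkk1 (0.163), Apobec3 and Lrmp, and those of Tlr9 were Pira1 (0.236), Wdfy4 and Galnt6. Tlr3 was nearest to Hps3 (0.0872), Zbtb4 and Tcf7l2, and Tlr5 to A430035B10Rik (0.0869), Arl5b and Ankrd37. Among the receptors themselves Tlr4 and Tlr8 were the closest pair (0.350), followed by Tlr2 and Tlr4 (0.384), Tlr1 and Tlr4 (0.433) and Tlr1 and Tlr6 (0.439), the paralogs that may share reads. With 6 libraries and many candidates, a small difference is a description of these libraries.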

How the data were processed

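The authors isolated total RNA from liver tissue, prepared poly(A)-selected libraries and quantified transcripts of the GRCm38 mouse build with Salmon 1.4.0 (tools and builds also per the labels' processing notes). The deposited values are raw counts per gene symbol, whole numbers without normalization. How transcripts were brought to genes, and whether counting used strand, is not given in the sources used here. All 6 columns were mapped to a sample by their labels, and 0 were left without one. 78 rows repeat an earlier symbol and were given a suffix. Genotypes were compared with edgeR 4.0.16 (R 4.3.3): filterByExpr with a minimum count of 10, TMM factors, robust quasi-likelihood fits over all 13867 genes, a two-sided test of genotype, and Benjamini-Hochberg adjustment over all genes tested at a threshold of 0.05. Standard errors were taken as the fold change on the log2 scale over the square root of F. The prior count for log2 CPM was 2. Each library is 1 mouse. The edgeR p-values set the genotype difference against the spread between livers, estimated with information shared over all genes.

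Gene lengths, 31-mers and loci are from the GENCODE annotation of GRCm38, upstream windows from RefSeq. The receptors, the pathway and marker lists, the tests and the alternatives were chosen with earlier results of these data known. Named genes are all receptors, Tlr11 and Tlr12, every called pathway gene, markers that define a cell type, and the 3 genes nearest to each receptor; uncalled pathway genes were added after their values were seen. Alternatives were DESeq2 1.42.0, limma-voom (limma 3.58.1), library size alone, upper-quartile factors, macrophage marker scaling, no filter, filters of 1 and of 10 counts in each library, a threshold of 0.01, a replicate block, the longest transcript as gene length, and fits that each left out 1 library. Scaling to Kupffer cell markers was chosen after seeing the data. The fits were tested on simulated data. Plots are from matplotlib 3.10.9 (Python 3.11.15). Raw reads were not analysed here.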

Additional observations from a re-analysis of the deposited data

How the results depend on the processing

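Apart from scaling to markers, all 137 alternative fits of single receptors kept the direction, 123 on the same side of the threshold, 6 now past it and 8 no longer past it. The number of receptors called higher was 6, and it was 7 with DESeq2 (Tlr3 added), 8 with limma-voom (Tlr6 and Tlr9 added), 3 at a threshold of 0.01, 5 of the 7 receptors left by at least 10 counts in every library, and 2 to 8 when one library was left out (2 without WT replicate 3, 3 without WT replicate 2 and 8 without WT replicate 1). Receptors called lower stayed at 0, though Tlr6, Tlr7, Tlr8 and Tlr9 passed the main filter by their CgA-KO counts. Pathway genes called, 18, were 5 at a threshold of 0.01 and 5 to 21 with one library left out. All genes called, 1726, were 2601 with DESeq2, 360 at 0.01 and 394 to 2126 with one library left out (394 without WT replicate 3, 744 without CgA-KO replicate 1, 841 without WT replicate 2 and 976 without CgA-KO replicate 2). Of the calls 69.1% were higher, and 86.6% were with library size alone, which moved the median of all genes to 0.26, 55.8% without WT replicate 2 and 80.5% without CgA-KO replicate 1. The cause was not tested.

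Scaling to macrophage markers left 0 receptors higher and 2 lower, with 46 pathway genes and 12684 genes called, and turned the log2 fold changes of Tlr1 (-0.71), Tlr2 (-0.86), Tlr4 (-0.25), Tlr6 (-0.80), Tlr3 (-2.31) and Tlr9 (-0.29). Scaling to Kupffer cell markers left 2 higher and 1 lower, with 39 pathway genes and 11719 genes called, and turned Tlr6 (-0.11) and Tlr3 (-1.28). By construction both subtract the marker increase from every gene. The longest transcript as gene length exchanged the places of Tlr1 and Tlr2 and of Tlr3 and Tlr4 in CgA-KO and of Tlr13 and Tlr4 in WT.

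With a replicate block 7 receptors were called, Tlr6 added (2.23, edgeR adjusted p = 0.0398), 17 pathway genes and 1498 genes. The deviations of same-numbered livers from their genotype means had correlations of 0.199, 0.0127 and -0.0659. WT replicate 1 correlated best with CgA-KO replicate 1, and WT replicate 2 with CgA-KO replicate 3 (0.234). With 3 livers per genotype these correlations cannot decide whether same-numbered libraries belong together, and the labels give only a number. Tlr9, with 1 and 2 counts in WT replicates 2 and 3, was under the floor of 3 counts there.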
